A study of Mus musculus with 4 samples.

Results

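Gene expression in the lungs of resting mice was compared between a tumor-bearing and a tumor-free group, as the difference of the deposited values of the library E(-)T(+) minus those of the library E(-)T(-). Genes entered the comparison when their mean normalized read count over the 4 lung libraries was at least 100, which 9396 of 23282 rows (40.4%) reached. These 9396 genes held 97.8% to 98.6% of the reads of each library. The limit cut through a continuous range: Lysmd1 was just inside it (152, 117, 47.2 and 84.2 normalized counts in untreated E(-)T(-), exercised E(+)T(-), tumor-bearing E(-)T(+) and finally E(+)T(+)) and Usp11 just outside (146, 86.3, 102 and 65.5).

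All animals were male CDF1 mice, a hybrid laboratory strain. E(-)T(-) mice neither exercised nor received tumor cells, and E(-)T(+) mice did not exercise but had CT26 cells, a mouse colorectal carcinoma line, injected into a tail vein. The other two groups ran on a treadmill, E(+)T(-) without and E(+)T(+) with CT26 cells, and enter here through the expression limit and as values set beside the resting pair. The labels give postnatal day 28 and the design text 10 mice for each group, and by the methods that age is the one at purchase. A single library was deposited per group. For muscle the study used a representative mouse of each group, and for lung it refers to a similar analysis without naming the number of animals, so that no difference within the resting pair has a replicate check and none was tested. Exact 95% intervals are given for the ratio of reads of the 2 resting libraries on the log2 scale. These intervals hold counting error alone, because no group has a replicate library. Reads were not collapsed to molecules and PCR can copy a fragment, so the intervals may be too narrow even for counting error.

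Cancer cells that enter a tail vein reach the capillaries of the lung before any other organ, so lung colonies form within the alveolar bed. That bed is made of thin alveolar type 1 cells, surfactant-producing type 2 cells, a dense capillary endothelium and resident macrophages. A carcinoma deposit adds dividing cells together with the macrophages, neutrophils, fibroblasts and lymphocytes that it attracts or displaces.

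Total reads were 13017405 for E(-)T(-), 12780517 for E(+)T(-) without tumor, 9354539 for resting tumor-bearing E(-)T(+) and 13367914 for E(+)T(+). In that order 3 reads correspond to 0.23, 0.235, 0.321 and 0.224 CPM. The E(-)T(+) library stood apart in its hemoglobin reads, which made up 1.43% of the total, against 14.3% and 14.2% in the tumor-free libraries and 31.4% in E(+)T(+). In every library the lung-defining genes Sftpc, Ager and Scgb1a1 were among the abundant ones. The tumor-free E(+)T(-) library held some reads of genes that had none in E(-)T(-) and many in E(-)T(+). Over the 13 such genes its normalized count was 0.642% to 5.63% of that in E(-)T(+), with a median of 1.74%. The source of these reads, index or sample carry-over included, was not tested. The Y-linked gene Ddx3y had 1369, 1388, 298 and 1185 reads in the order untreated, exercised, tumor, exercised with tumor, which is the order of all values listed by library from here on. Xist had 30, 46, 2 and 11. All 4 libraries thus held more reads of Ddx3y than of Xist, as labelled for males, and Ddx3y was lowest in E(-)T(+).

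Of the 9396 genes, 1724 (18.3%) were at least 2-fold higher in E(-)T(+) than in E(-)T(-) and 1877 (20%) were at least 2-fold lower. The median difference over all genes was 0.05 on the log2(normalized count + 1) scale and the median absolute difference was 0.75. At a 4-fold limit 550 genes were higher and 861 lower, and at an 8-fold limit 229 and 349. At 32-fold the balance was the other way, with 63 higher and 22 lower. The expression limit includes E(-)T(+) itself, so genes nearly absent elsewhere can enter through that library alone. Of the higher genes 13 had 0 reads in E(-)T(-), and of the lower genes 3 had 0 reads in E(-)T(+). How far the limit shaped this balance was not tested. Of the 3601 genes past 2-fold, 2865 had a counting interval that lay wholly beyond 2-fold. Among genes with a mean normalized count of 4000 or more, 49.1% were past 2-fold. The share was 34.3% between 400 and 1000 and 43.8% between 100 and 200, so it did not rise steadily with level. Scaling by library totals alone moved the median over all genes by 0.11, and totals without hemoglobin and the ribosomal precursor Rn45s moved it by -0.15.

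**Figure D1:**
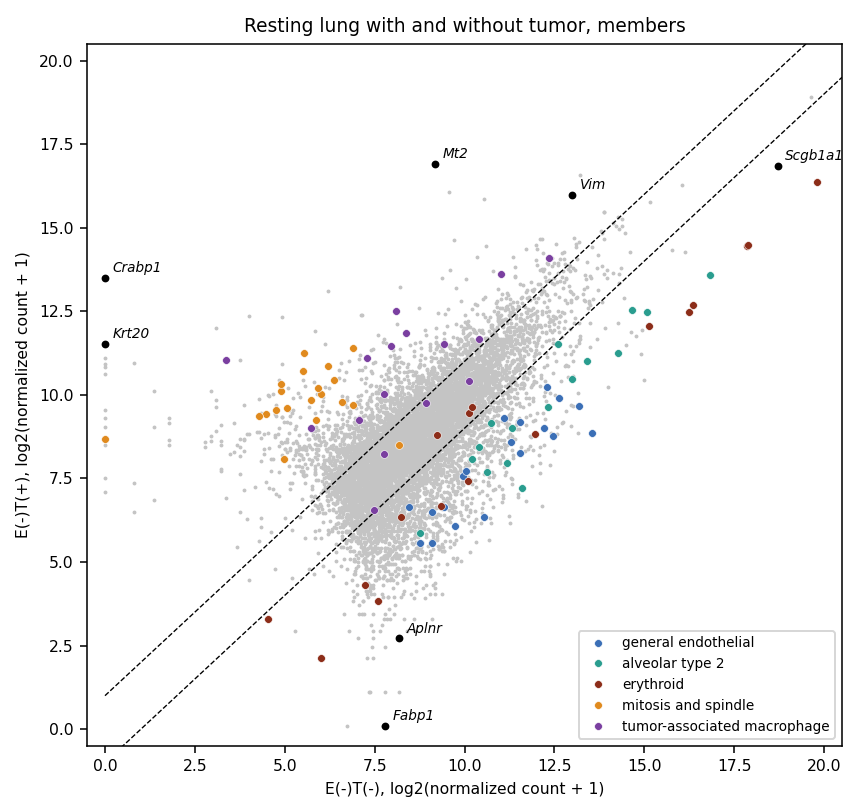
Each grey point is 1 of the 9396 genes, with its level in E(-)T(-) on the x axis and in E(-)T(+) on the y axis, both as log2(normalized count + 1) from 1 library, and dashed lines mark 2-fold. Coloured points are the members of 5 gene lists; endothelial, alveolar type 2 and most erythroid genes lie below the lower line, and 19 of the 20 mitosis genes above the upper one.

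The 12 largest increases included 9 genes without a single read in E(-)T(-). Crabp1, which encodes a cytoplasmic retinoic acid-binding protein (chr9:54764748-54773110, mm10), had 0, 141, 10478 and 382 reads. It was therefore at least 4504-fold higher in E(-)T(+) when E(-)T(-) is set at a floor of 3 reads per library. Krt20, an intermediate filament protein of intestinal epithelium (chr11:99428385-99438153), had 0, 46, 2696 and 476 reads and was at least 1159-fold higher. Both genes were highest in E(-)T(+), second in E(+)T(+), low in E(+)T(-) and not detected in E(-)T(-). The uncharacterized 3110039M20Rik had 0, 11, 1429 and 126 reads, at least 614-fold higher. It shared this order of the 4 libraries. The transcription factors Osr2 (at least 719-fold) and Etv4 (at least 293-fold) and the granzymes Gzmf, Gzmd and Gzmg were likewise at 0 in E(-)T(-). Among the 12, AA467197 had 1 read in E(-)T(-) and 1810 in E(-)T(+), a log2 read ratio with an interval of 8.71 to 16.49. Rpl39l, a ribosomal protein gene copy, differed by 8.89, from 9 to 3699 reads. Fosl1, a partner of Jun in AP-1, differed by 8.75, from 2 to 1020 reads.

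The 12 largest decreases began with Fabp1, the liver-type fatty acid-binding protein that mouse alveolar macrophages also make. It had 257, 380, 0 and 38 reads and was at least 66.4-fold lower in E(-)T(+), with the floor of 3 reads on the tumor side. 6330403K07Rik had 249, 189, 0 and 68 reads (at least 64.4-fold lower) and Apol11b, an apolipoprotein L, 125, 126, 0 and 1384 (at least 32.3-fold lower). In Apol11b the E(+)T(+) library was far above the other 3. Ppp1r3c, a glycogen-targeting subunit of protein phosphatase, went from 337 reads to 1 (interval -13.34 to -5.54), and Aard, Kcne2 and Fam162b likewise had 1 read in E(-)T(+). The others were Pknox2 (-5.81), Rprml (-5.69), the collagen-processing enhancer Pcolce2 (-5.48), the apelin receptor Aplnr (-5.48) and Mturn (-5.47). Pcolce2 was the most abundant of the 12, with 4604, 3625, 102 and 1268 normalized counts. Of all 1877 lower genes, 1794 had their lowest value of the 4 libraries in E(-)T(+), and of the 1724 higher genes 1564 had their highest value there. Both groups of genes were picked by their E(-)T(+) value, which by itself favors such a position. The share over all genes was not calculated.

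Ranked by normalized counts gained rather than by fold, the metallothionein Mt2, which binds zinc and copper, came first, followed by S100a6, S100a4, Mt1, Vim and Rplp2-ps1. Mt2 had 576, 2378, 122294 and 23591 normalized counts, a difference of 7.73 (interval 7.62 to 7.84). In E(-)T(+) it was second in level to Rn45s, the ribosomal RNA precursor. Mt1, another metallothionein, lies 5316 bases from Mt2 on chromosome 8 and had 1504, 2262, 59227 and 30235. Both were far higher in the 2 tumor libraries than in the 2 tumor-free ones. The calcium-binding proteins S100a6 and S100a4, 6849 bases apart on chromosome 3, had 9416, 10162, 96818 and 31021 and 765, 2001, 68034 and 10433 normalized counts. The mesenchymal filament protein Vim had 8157, 8339.97, 65037 and 10106, high in E(-)T(+) and close together in the other 3 libraries. Rplp2-ps1, a ribosomal protein pseudogene whose reads may be shared with its parent gene, differed by 1.60. The largest losses of counts were in the alpha-globin Hba-a1 (-3.43), Rn45s (-0.71), the club cell secretory protein Scgb1a1 (-1.87), the beta-globins Hbb-bs (-3.39) and Hbb-b1 (-3.41) and the surfactant protein Sftpc (-3.24). At the other extreme, Rpl22 (0.02), Hsp90aa1 (0.00), Txnip (-0.03) and Dbi (0.03) were the most abundant genes within 0.05 of no difference. Against the mean of both tumor-free libraries Hsp90aa1 was at -1.17, since it had 8225, 28763, 8231 and 7336 normalized counts, and under the other scalings the 4 lay between -0.18 and 0.14.

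Genes of cell division were higher as a group. In the mitosis list, 20 of 29 genes reached the expression limit and 19 of these were at least 2-fold higher, none lower, against a background of 18.3% higher among all genes. Their median difference was 4.53, and over all 29 listed genes with a read it was 4.50, with 28 higher. The 18.3% higher and 20% lower of the 9396 genes are the background for each count above the limit. Of the 17585 genes with a read in either resting library 24.5% were higher and 25.7% lower, the background for each count over genes with a read. Ccnb1 and Ccnb2 encode the B-type cyclins that activate Cdk1, the kinase that starts mitosis. Ccnb1 had 21.1, 28.4, 687 and 225 normalized counts, Ccnb2 18.6, 46.8, 662 and 139 and Cdk1 44.1, 105, 1692 and 431. Each was lowest in the tumor-free libraries, highest in E(-)T(+) and intermediate in E(+)T(+). Plk1, the polo-like kinase, differed by 5.42, the proliferation marker Mki67 by 4.12, topoisomerase Top2a by 4.50 and the ubiquitin-conjugating enzyme Ube2c by 5.22. The kinesin Kif2c, which depolymerizes microtubules at centromeres, had 0, 6, 370 and 54 reads and was the largest difference of the list, at least 159-fold. Another kinesin, Kif20a, was the exception, with 288, 241, 357 and 142 normalized counts and a difference of 0.31.

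DNA replication genes had a smaller difference. Of 19 that reached the limit, 18 were at least 2-fold higher and none lower, with a median of 2.44, and 24 of all 25 listed genes with a read were higher. The helicase subunit Mcm2 had 132, 112, 847 and 319 normalized counts, and Mcm3, Mcm4 and Mcm5 of the same hexamer differed by 2.17, 1.30 and 2.25. The thymidine kinase Tk1 had the largest difference, 4.67 (36.4, 47.7, 954 and 295), and the replication initiation factor Gins2 the smallest, 0.97. Among inhibitors of the cycle and p53 targets the picture was mixed, with 6 higher and 3 lower of 18 and a median of 0.36. Cdkn1a, the p21 inhibitor, had 1809, 5017, 3749.8 and 18832 normalized counts and was higher in each tumor library than in its tumor-free partner. Cdkn1c, which encodes the inhibitor p57, was -2.77 and the p53 target Phlda3 1.97, the extremes of that list.

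Promoters of mitosis genes often carry a cell cycle homology region (CHR, searched as TTTGAA) with CCAAT boxes (CCAAT) upstream, elements through which the DREAM complex and the factor NF-Y are known to act. Both were searched on both strands of the RefSeq GRCm38.p6 windows from 250 bases before to 50 bases after the start of each gene. The CHR letters were found in 17 of 25 mitosis promoters (68%), against 18.1% of all 27025 promoters, and both elements together in 15 (60%), against 7.12%. Promoter counts here and below take all listed genes with a window, whatever their level or difference. They describe the lists and not the tumor effect. The windows of Ccnb2 (chr9:70421505-70421804, minus strand), Cdk1 (chr10:69352863-69353162, minus strand), Cdc20 (chr4:118437294-118437593, minus strand) and Top2a (chr11:99024140-99024439, minus strand) are shown as examples. Each belongs to a gene of the list that was over 16-fold higher in E(-)T(+) and holds both elements. So do the windows of Plk1, Ube2c and Mki67, which are not shown. Capitals mark the CHR letters (TTTGAA, or TTCAAA on the other strand) and the CCAAT letters (CCAAT, or ATTGG).
Ccnb2: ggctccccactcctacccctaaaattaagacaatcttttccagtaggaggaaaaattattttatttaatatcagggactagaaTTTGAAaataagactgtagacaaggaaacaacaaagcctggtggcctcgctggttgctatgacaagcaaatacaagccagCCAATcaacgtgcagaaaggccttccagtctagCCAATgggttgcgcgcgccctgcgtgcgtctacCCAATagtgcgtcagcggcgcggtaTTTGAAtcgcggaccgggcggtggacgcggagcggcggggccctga
Cdk1: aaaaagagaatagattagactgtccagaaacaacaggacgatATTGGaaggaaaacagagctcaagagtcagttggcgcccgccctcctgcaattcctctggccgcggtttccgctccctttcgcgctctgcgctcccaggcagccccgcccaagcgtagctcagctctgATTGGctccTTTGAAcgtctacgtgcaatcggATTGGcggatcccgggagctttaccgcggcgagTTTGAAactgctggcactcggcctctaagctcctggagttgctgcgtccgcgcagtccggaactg
Cdc20: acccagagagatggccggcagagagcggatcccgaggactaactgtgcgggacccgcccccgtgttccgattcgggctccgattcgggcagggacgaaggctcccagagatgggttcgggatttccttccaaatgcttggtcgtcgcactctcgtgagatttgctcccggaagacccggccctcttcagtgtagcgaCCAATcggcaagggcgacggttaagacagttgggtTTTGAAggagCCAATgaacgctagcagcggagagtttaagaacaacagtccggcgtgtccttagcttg
Top2a: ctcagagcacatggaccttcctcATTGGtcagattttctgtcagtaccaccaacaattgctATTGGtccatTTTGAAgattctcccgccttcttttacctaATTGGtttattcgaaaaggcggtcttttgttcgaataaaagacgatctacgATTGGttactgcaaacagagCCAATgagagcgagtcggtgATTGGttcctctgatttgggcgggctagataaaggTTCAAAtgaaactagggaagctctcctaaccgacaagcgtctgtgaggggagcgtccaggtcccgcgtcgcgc
In Cdc20 the CHR letters stood 18 bases before the start and in Ccnb2, Cdk1 and Top2a there were 2 copies each. A match is a description of the letters and not of a bound site. Ccnb1, Nusap1 and Birc5 were also higher (4.96, 2.79 and 5.72) and had no CHR letters in this window.

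E2F letters (TTTGGCGC or TTTCGCGC, both strands) were found in 7 of 20 DNA replication promoters (35%), against 0.833% of all promoters and 4% of the mitosis promoters. Mcm6, the member of the helicase with the largest difference (3.95), held 3 matches, of which 2 overlap, in capitals (chr1:128359656-128359955, minus strand).
Mcm6: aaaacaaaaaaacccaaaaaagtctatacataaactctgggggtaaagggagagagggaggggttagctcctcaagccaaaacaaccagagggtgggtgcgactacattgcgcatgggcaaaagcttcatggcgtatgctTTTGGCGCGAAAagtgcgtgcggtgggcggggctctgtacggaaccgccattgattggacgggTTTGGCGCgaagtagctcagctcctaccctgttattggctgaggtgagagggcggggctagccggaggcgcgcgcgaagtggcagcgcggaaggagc

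Genes of ribosome production were higher as well. In the ribosome biogenesis list 21 of 23 genes were at least 2-fold higher and none lower, with a median of 1.92. Nucleolin (Ncl) had 4072, 5491, 23057 and 8208 normalized counts and nucleophosmin (Npm1) 1941, 2871, 9241 and 3969. Among the first listed, the snoRNP proteins Nop56 and Nop58 differed by 0.93 and 2.60. The largest difference was in Odc1 (2.85), the rate-limiting enzyme of polyamine synthesis, and the smallest in Bop1 (0.32). Myc itself was below the limit, with 23, 4, 209 and 10 reads. Cytosolic ribosomal protein genes were higher by about 2-fold. In that list 20 of 30 passed 2-fold and none was lower, with a median of 1.13, or 0.99 when hemoglobin and Rn45s were left out of the scaling. Rpl4 had the largest difference, with 5992, 8231, 23314 and 7885 normalized counts, and Rps27 the smallest (-0.08). Pseudogene copies can share reads with many of these genes. Proteasome subunits (median 0.80, 7 of 20 higher) and oxidative phosphorylation subunits (median 0.55, 3 of 24 higher) had smaller differences, with none lower in either list. The count for oxidative phosphorylation is below the 18.3% of all genes that were higher.

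Glycolysis and hypoxia genes were mostly higher. Of 23 genes that reached the limit, 13 were at least 2-fold higher and 2 lower, with a median of 1.28. The glucose transporter Slc2a1 had 186, 185, 1055 and 579.8 normalized counts, hexokinase Hk2 267, 411, 768 and 1414, Hk1 517, 556, 819.9 and 687 and the isomerase Gpi1 1004, 1001, 4084 and 2419. In Hk2 the highest library was E(+)T(+), and in the other 3 genes it was E(-)T(+). Gapdh had the largest difference (3.12, 104, 106, 912 and 321), and its reads may be divided with its many pseudogenes. The lower genes were Epas1 (22978, 19906, 2873 and 15781, -3.00), the HIF-2 alpha factor that is abundant in lung endothelium, and Vegfa (3639.7, 3474, 674 and 2182, -2.43), which alveolar type 1 cells express. Vegfa, although a textbook hypoxia target, was thus lowest in the library with the highest Slc2a1. ACGTG, the core of the hypoxia response element, was found on either strand in 14 of 26 promoters of this list (53.8%), against 19.7% of all promoters. The window of Ldha (chr7:46845554-46845853, plus strand), whose gene had 1172, 1322, 6046 and 2265 normalized counts and which makes lactate dehydrogenase A, holds it 5 times, with overlapping matches on the 2 strands in capitals.
Ldha: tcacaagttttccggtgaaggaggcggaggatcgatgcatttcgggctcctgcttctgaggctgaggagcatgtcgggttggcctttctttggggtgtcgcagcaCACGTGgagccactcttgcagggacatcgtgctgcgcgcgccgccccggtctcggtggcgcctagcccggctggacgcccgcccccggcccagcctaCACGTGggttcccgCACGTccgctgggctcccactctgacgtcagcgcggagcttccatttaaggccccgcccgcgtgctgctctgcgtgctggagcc

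In the amino acid stress list 8 of 14 passed 2-fold and none was lower (median 1.48), and of the 22 with a read 12 were higher and 1 lower. This median was 0.91 with the limit set on the exercised libraries and 0.47 at a mean of at least 400. The transcription factors Atf4, Atf5 and Ddit3 differed by 0.47, 0.91 and -0.32, and asparagine synthetase Asns by 1.71. The largest difference was in the amino acid transporter Slc7a5, with 25.4, 29.3, 681 and 125 normalized counts. Outside the naming rule and chosen after its value was seen, the serine synthesis enzyme Psat1 had 90.8, 95.5, 1462 and 471. Both genes were highest in E(-)T(+) and the 3 transcription factors were inside 2-fold. Cholesterol and fatty acid synthesis genes had a median of 0.67, with 7 higher and 1 lower of 20, against 18.3% and 20% of all genes. Fatty acid oxidation genes had 5 of 16 lower and none higher (median -0.66), against the same shares. They were led by the fatty acid translocase Cd36 at 4407, 4665, 349.7 and 2550.3.

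**Figure D2:**
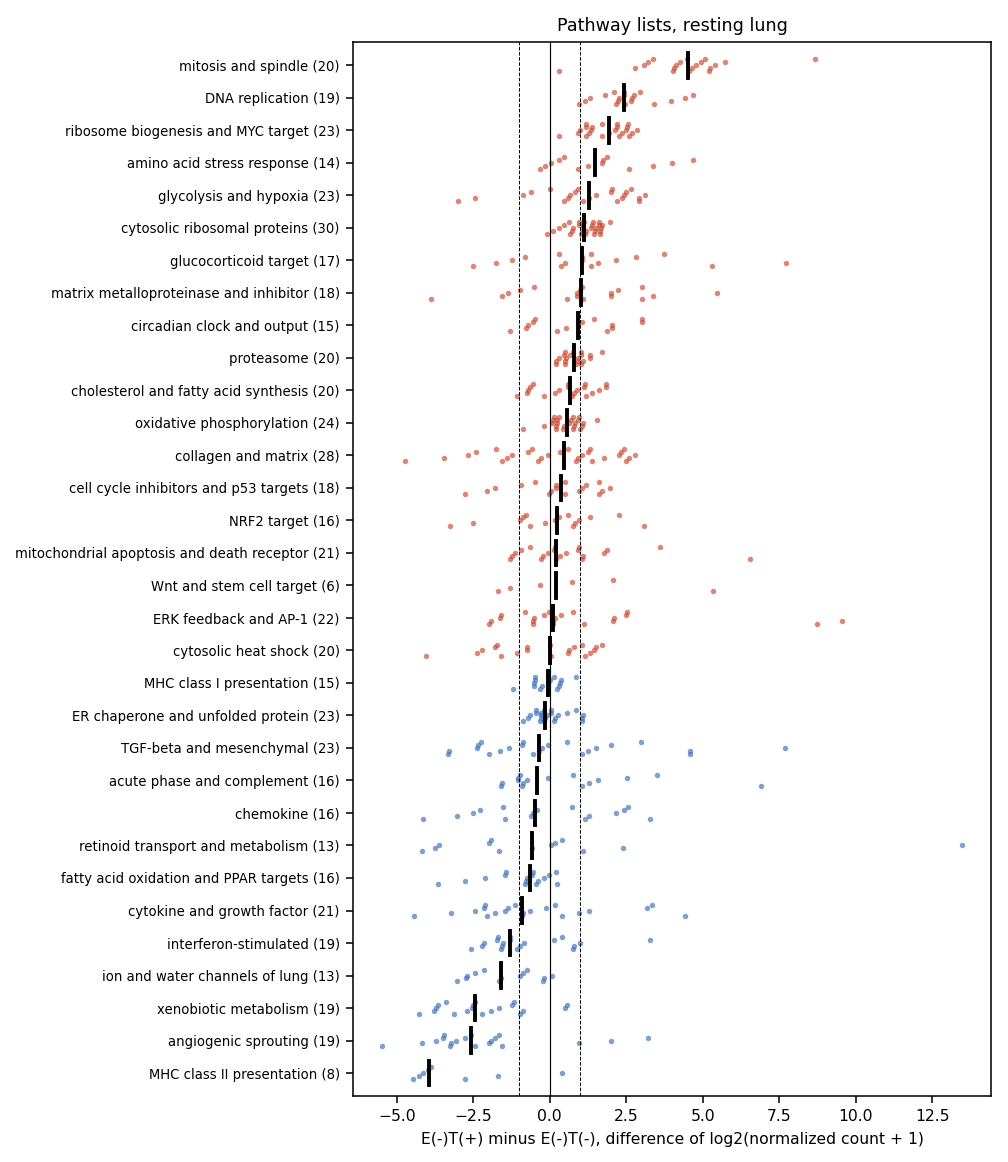
Each point is a gene that reached the expression limit, placed by its difference E(-)T(+) minus E(-)T(-) in log2(normalized count + 1), and the bar is the median of its pathway list; the number of genes is in brackets and dashed lines mark 2-fold. Mitosis is at the top with a median of 4.53 and MHC class II presentation at the bottom with -3.94.

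Lung-forming cells were lower as a rule. In these bulk libraries fewer cells of a type and less RNA per cell cannot be told apart. All 16 alveolar type 2 genes that reached the limit were at least 2-fold lower, against a background of 20% lower, with a median of -2.55 and a summed level of 241495, 289129, 36024 and 197888 normalized counts. Surfactant protein C (Sftpc) had 116987, 141162, 12347 and 81470.1 normalized counts, a difference of -3.24 (interval -3.27 to -3.22). The other surfactant proteins, Sftpb, Sftpa1 and Sftpd, differed by -2.12, -2.58 and -2.39. Lamp3, of the lamellar bodies that store surfactant, had the largest decrease (-4.38, 3097, 4039, 148 and 1713), and the desaturase Scd1 the smallest (-1.07). In all 16 genes E(-)T(+) was the lowest of the 4 libraries.

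Alveolar type 1 genes had a median of -2.02, with 12 of 15 lower. Ager, the receptor for advanced glycation end products and a defining gene of these cells, had 25337, 40257, 3776 and 21012 normalized counts. Hopx, Pdpn and Aqp5 differed by -1.70, -0.59 and -1.67, and the largest decrease was in Igfbp2 (-4.72). The list had 1 gene that was higher, the kinase-anchoring protein Akap5, with 4419.5, 5804, 25833 and 4478 normalized counts. E(-)T(+) was the only library in which Akap5 stood out, since the other 3 lay between 4419.5 and 5804. Genes of ion and water channels of the lung had 7 of 13 lower and none higher (median -1.59). Within them the epithelial sodium channel subunits Scnn1a, Scnn1b and Scnn1g differed by -1.59, -2.14 and -0.87, the chloride channel Cftr by -3.05 and the water channel Aqp1 by 0.06.

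Airway secretory genes were divided. Of 13 in the list, 9 were at least 2-fold lower and 3 higher, with a median of -1.59. The club cell genes Scgb1a1 (428518, 520665, 117068 and 526837), Scgb3a2 (11441, 17498, 6552 and 7722) and Cyp2f2 (31042, 32048, 2363 and 25109) had their lowest values in E(-)T(+). Scgb3a1, a secretoglobin of larger airways, had 4553, 3450.5, 25995 and 2265. Reg3g, an antimicrobial lectin, had 291, 319.7, 9607 and 132 (difference 5.04, interval 4.89 to 5.20), and Bpifa1, an airway defence protein of the upper respiratory tract that was named after its value was seen, had 774, 805, 13738 and 279.5. These 3 genes were highest in E(-)T(+) and lowest in E(+)T(+). Ciliated cell genes were lower in 11 of 13 and higher in none (median -1.79), and of the 17 with a read 14 were lower and 1 higher. The ciliary transcription factor Foxj1 and the dynein heavy chain Dnah5 differed by -1.13 and -1.63, Cfap126 of the axoneme by -1.09, Tppp3 by -4.17 at one end and Mlf1 by -0.43 at the other. Of the epithelial keratins and adhesion genes in the colon epithelium list, Krt8, Krt18, Krt19, Krt7, Epcam and Cdh1 lay between -1.89 and -0.90, and of the 7 genes that reached the limit Krt20 alone was higher, against 3 of the 17 with a read. The intestinal genes Cdx2 and Lgals4 of that list had no read in any library.

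**Figure D3:**
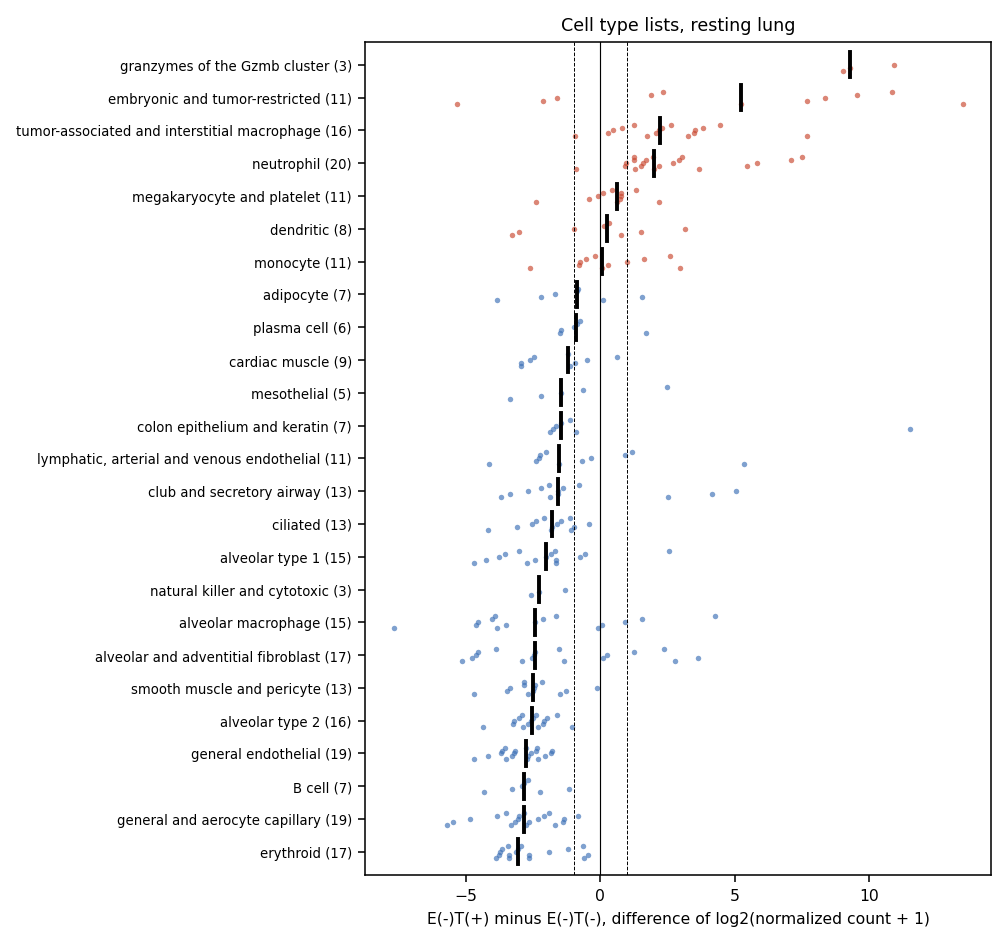
Each point is a gene that reached the expression limit, placed by its difference E(-)T(+) minus E(-)T(-) in log2(normalized count + 1), and the bar is the median of its cell type list; only lists with 3 or more such genes are drawn, the number is in brackets and dashed lines mark 2-fold. Medians run from -3.08 for erythroid genes to 9.30 for the granzyme cluster. The 3 granzyme genes had 0 reads in E(-)T(-), so their median depends on the pseudocount and was 6 with a pseudocount of 10.

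Endothelial genes were lower almost without exception. In all, 19 of 19 general endothelial genes that reached the limit were at least 2-fold lower (median -2.77), as were 18 of 19 capillary genes (median -2.85). Pecam1, an adhesion molecule of all endothelium, had 6333, 7961, 956 and 7454 normalized counts, VE-cadherin (Cdh5) 3006, 3097, 306 and 2150.3, the angiopoietin receptor Tek 1491, 1204, 81.1 and 878 and the receptor kinase Tie1 848, 1078, 65.8 and 521. In each of the 4, E(-)T(+) was lowest and E(+)T(+) was nearer to the tumor-free libraries than to E(-)T(+) on the log2 scale. The adrenomedullin receptor Calcrl had the largest decrease of that list (-4.70) and the decoy VEGF receptor Flt1 the smallest (-1.78). In the capillary list, Gpihbp1, which docks lipoprotein lipase, and the diaphragm protein Plvap differed by -1.37 and -3.08, Cd93 by -2.34, and the extremes were Rprml (-5.69) and lipoprotein lipase itself (Lpl, -0.83). Lymphatic, arterial and venous genes did not move together, with 6 lower and 2 higher of 11. The lymphatic receptors Lyve1 and Flt4 differed by -0.34 and -2.24, the lymphatic chemokine Ccl21a by -4.15, the arterial kinase Bmx by -2.04 and the Wnt antagonist Dkk2 by 5.35.

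The angiogenic sprouting list, which holds ligands and receptors of vessel growth, had 16 of 19 genes lower and 2 higher (median -2.59). The ligand Vegfa and its receptors Kdr (5633, 4459.5, 431 and 1965) and Flt1 (2183, 2675, 633 and 2337) were all lowest in E(-)T(+), as was the co-receptor Nrp1 (7973, 7121, 834 and 3724). Aplnr was the lowest of the list. Esm1, a secreted proteoglycan that marks endothelial tip cells, was the largest increase, with 172, 165, 1615 and 263 normalized counts (interval 3.02 to 3.45). The netrin receptor Unc5b was the other gene above 2-fold, with 245, 403, 982 and 380.1, and was named after its value was seen.

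Connective tissue genes were divided. In the fibroblast list 11 of 17 genes were lower and 4 higher (median -2.42). Genes of the alveolar fibroblast, the transcription factor Tcf21 (684, 469, 24.2 and 278), nephronectin (Npnt, 2557, 3177, 439.5 and 1346) and Wnt2 (213, 202, 27.5 and 106), were low in E(-)T(+), as was the methyltransferase Inmt (32744, 32093, 1379 and 20780.3). The integrin Itga8 had the largest decrease (-5.14) and the ferritin receptor Scara5 the largest increase (3.62). Smooth muscle and pericyte genes were lower in 12 of 13 and higher in none (15 and 1 of 18 with a read), with Acta2 at -2.45, Myh11 at -2.84, Tagln at -1.28, Cnn1 at -2.50, Postn at -4.72 and Smtn at -0.13. Among collagens and matrix genes 11 were higher and 8 lower of 28. The fibrillar chains Col1a1, Col1a2 and Col3a1 differed by 1.37, 2.77 and 2.33, and Col1a2 had 2622, 2538, 17953 and 3431 normalized counts. The basement membrane chain Col4a1 differed by -0.39. Postn was again the lowest and Col1a2 the highest of the list. Of the matrix metalloproteinases and their inhibitors, 10 of 18 were higher and 3 lower. The gelatinases Mmp2 and Mmp9 differed by 0.88 and 2.01, stromelysin Mmp3 by 2.01 and the neutrophil collagenase Mmp8 by 3.02. Timp1, an inhibitor of these enzymes, had the largest difference, with 22, 49.5, 1019 and 428 normalized counts, and Mmp15 the lowest (-3.90).

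TGF-beta and mesenchymal genes were divided. The transcription factor Twist1 had 2, 11, 484 and 39 reads (interval 6.42 to 11.34), the largest difference of this list. It had 8 genes higher and 8 lower of 23 (median -0.35), with the endothelial receptor Acvrl1 lowest (-3.34) and Cdh5 next. Of its first members, the receptors Tgfbr1 and Tgfbr2 differed by -0.35 and 0.58, and the matrix protein Tgfbi had 389, 346, 924 and 2150.3 normalized counts. In the list of embryonic and tumor-restricted genes 8 of 11 were higher and 3 lower, with a median of 5.25. Over all 22 with a read the median was 2.62, with 14 higher and 4 lower, and it was 1.88 both at a mean of at least 4 and with the limit set on the exercised libraries. Beside Crabp1, Osr2 and Etv4 these included the chromatin proteins Hmga2 (15.2, 108, 5292 and 363 normalized counts) and Hmga1 (141, 188, 5396 and 681), named after their values were seen. The 3 lower genes were Sox11 (-5.35), Igf2 (-2.14) and Etv5 (-1.60), the last of which is also an alveolar type 2 gene. The embryonic RNA-binding protein Lin28b had no read in any library.

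Macrophage genes differed by subtype. In the alveolar macrophage list 10 of 15 genes were lower and 2 higher (median -2.42). Besides Fabp1, the integrin Itgax had 487, 248, 18.7 and 174 normalized counts and the ribonucleases Ear1 and Ear2, near copies of each other, 1719, 1171, 71.3 and 719 and 1440.1, 1277, 87.7 and 837. Marco, a scavenger receptor of the same list, had 35.6, 24.7, 702 and 331, and Fabp4 2116, 729, 6255 and 471. Marco was high in both tumor libraries, and Fabp4 was highest in E(-)T(+) and lowest in E(+)T(+). Of the tumor-associated and interstitial macrophage genes, 12 of 16 were higher and none lower (median 2.23). The complement components C1qa and C1qb had 329, 349, 3711 and 1543 and 155, 251, 2185 and 1015 normalized counts. Osteopontin (Spp1), a secreted adhesion protein named after its value was seen, had 270.2, 258, 5877 and 558. Adgre1, the F4/80 antigen, and the growth factor receptor Csf1r, which mark macrophages in general, differed by -0.93 and 0.29. Monocyte genes had a median near 0 (0.05, and -0.10 with hemoglobin and Rn45s left out of the scaling). Their first members Ly6c2 and Ccr2 differed by -0.81 and -0.77, Cd14 by 0.99, F13a1 by 2.94 and Ace by -2.60.

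Neutrophil genes were higher in 17 of 20 and lower in none (median 1.98). Against both tumor-free libraries the median was 1.07, and the summed level of the list was 4828, 13894, 14433 and 224873 normalized counts. Without its most abundant members S100a8 and S100a9 the sum was 1307, 3034, 6339.9 and 45941. The alarmins S100a8 and S100a9 had 1366, 4299, 3909 and 90334 and 2155, 6561, 4184 and 88598 normalized counts, so that for both E(-)T(+) lay below the tumor-free E(+)T(-) library. With both tumor-free libraries as the reference the difference of S100a8 was 0.46. The chemokine receptor Cxcr2 and the resistin-like Retnlg differed by 1.23 and 2.68. At the extremes were the stefin Stfa2 (0, 4, 164 and 850 reads, near-identical copies being present) and interleukin 1 beta (Il1b, -0.90). With the exception of Ltf, lactoferrin, each of the 20 was higher in E(+)T(+) than in E(-)T(+).

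Lymphocyte genes were mostly too low for the expression limit. Of 24 T cell genes found, 2 reached the limit, both lower: Cd3d at 188, 209, 37.3 and 264 and the kinase Lck at 167, 138, 15.4 and 97.1. Of the 23 with a read, 20 were at least 2-fold lower and none higher, against 25.7% and 24.5% of all genes with a read. Cd3e, a signalling chain of the T cell receptor, had 89, 28, 9 and 32 reads. B cell genes gave the same direction, with 7 of 7 lower, and 18 of 20 with a read. Ms4a1, which encodes CD20, had 259, 159, 0 and 14 reads and was at least 67-fold lower in E(-)T(+). The receptor chain Cd79b had 265, 225, 12.1 and 77.2 normalized counts. Both were lowest in E(-)T(+). Natural killer genes were lower in 14 and higher in 2 of 18 with a read, and of the 3 that reached the limit Gzma differed by -1.31, Nkg7 by -2.58 and the chemokine Ccl5 by -2.29. Regulatory T cell and checkpoint genes had 6 higher and 2 lower of 15 with a read (median 0.78, or 0.37 at a mean of at least 4), against 24.5% and 25.7% of all genes with a read. Of this list only Foxp3, the defining transcription factor (101, 68.8, 173 and 116 normalized counts), and the costimulatory receptor Tnfrsf9 (13.5, 29.3, 396 and 57.4) reached the limit, and the first was inside 2-fold.

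Against this background the granzyme cluster of chromosome 14, serine proteases of cytotoxic granules that lie together with Gzmb, stood out. All 7 genes of the cluster were higher in E(-)T(+), 3 of them above the expression limit, with a median of 8.25 over the 7. The 3 had 0 reads in E(-)T(-), so their median depends on the pseudocount, 9.30 as deposited and 6 with a pseudocount of 10. Gzmd and Gzmg reached the limit through their level in E(-)T(+), 630 and 520 normalized counts. Gzmf (chr14:56205263-56211407) had 0, 37, 1784 and 427 reads, Gzmd 0, 15, 575 and 138 and Gzmg 0, 11, 475 and 127, at least 767-fold, 247-fold and 204-fold higher. Gzmb itself had 50, 17, 117 and 35 reads, and perforin (Prf1), through which granzymes enter their targets, 1, 7, 15 and 2. The genes Gzmd to Gzmg are close copies, so reads may be divided among them. Ncr1, a defining receptor of natural killer cells, had 165, 132, 27 and 14 reads, and the T cell coreceptors Cd8a 57, 26, 3 and 34 and Cd4 31, 67, 12 and 25. Cd8a and Cd4 were lowest in E(-)T(+) and Ncr1 in E(+)T(+). The part of any cell type in the granzyme reads was not tested.

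Antigen presentation differed by class. Major histocompatibility complex class I genes, which all nucleated cells use, had a median near 0 (-0.06, and 0.05 by library totals alone), with 14 of 15 inside 2-fold. The light chain B2m had 24678, 32316, 19673 and 27005 normalized counts and H2-K1, H2-D1 and H2-M3 differed by -0.25, 0.37 and 0.29. Class II genes, which B cells, dendritic cells and macrophages use, were lower in 7 of 8 (median -3.94). H2-Aa, H2-Ab1 and H2-Eb1 had 9108, 11074, 467 and 5311, 3745, 3282, 235 and 2303 and 5296, 5109, 238 and 2810.3. In each the 2 tumor-free libraries were alike, E(+)T(+) was lower and E(-)T(+) lowest by a wide margin. The peptide-loading gene H2-DMa differed by -1.70, and cathepsin S (Ctss), a protease of macrophages, was the exception at 0.39. Dendritic cell genes had a median of 0.24 over the 8 that reached the limit but -1.58 over all 19 with a read. Clec9a, of the cross-presenting subset, differed by -3.02, Irf8 by -0.98 and Fscn1, an actin-bundling protein that tumor cells can also express, by 3.14.

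Interferon-stimulated genes were lower in 11 of 19 and higher in 1 (median -1.29, or -0.91 over all 28 with a read). Isg15, a ubiquitin-like modifier, had 181, 152, 198 and 365 normalized counts, and Ifit1, Ifit2 and Ifit3 245, 210.4, 124 and 205, 121, 103, 210.3 and 123 and 1113, 871, 237 and 914. Of these 4, Ifit3 alone passed 2-fold. Cxcl10, a chemokine for activated T cells, had the largest increase, at 13.5, 16.5, 140.2 and 329. The interferon response element, searched on both strands as 2 copies of GAAA with any 2 bases between them, was found in 15 of 22 promoters of the list (68.2%), against 3.49% of all promoters. It was present both in genes that were lower and in Cxcl10. The window of Ifit3 (chr19:34583279-34583578, plus strand) carries it 2 times on the minus strand, in capitals.
Ifit3: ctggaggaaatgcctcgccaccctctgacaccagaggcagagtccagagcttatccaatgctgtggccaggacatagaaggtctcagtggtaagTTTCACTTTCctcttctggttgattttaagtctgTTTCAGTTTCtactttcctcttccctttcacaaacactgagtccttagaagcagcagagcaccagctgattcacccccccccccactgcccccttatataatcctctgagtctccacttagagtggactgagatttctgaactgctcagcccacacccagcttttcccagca
Among chemokines 6 were higher and 6 lower of 16. The lowest was Ccl21a, which guides lymphocytes, and the highest Cxcl10. Ccl5, Ccl6, Ccl8 and Ccl9, the first that reached the limit, differed by -2.29, 0.72, 1.14 and 2.55. Growth factors and cytokines had 10 lower and 4 higher of 21 (median -0.90), against 20% and 18.3% of all genes. The higher count was thus near the background. Of the 43 with a read, 17 were lower and 13 higher (median -0.41), against 25.7% and 24.5%. Fibroblast growth factor 1 (Fgf1) was the lowest at 2865, 2775, 131 and 1016, and Spp1 the highest. Il34, the second ligand of the Csf1r receptor, was named after its value was seen and had 291, 244, 2635 and 394.

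Red blood cell genes were lower. Of 17 erythroid genes that reached the limit, 14 were lower and none higher (median -3.08). Of the 29 with a read, 17 were lower and 4 higher (median -2.27). Hba-a1 had 909679, 904022, 84460.1 and 2669243 normalized counts and Hba-a2, Hbb-b1 and Hbb-b2, which have near-identical copies, differed by -3.08, -3.41 and -3.75. The transferrin receptor Tfrc had the smallest decrease (-0.46). The heme enzyme Alas2, chosen after its value was seen, had 4022, 4201, 454 and 15825. All 17 genes were lowest in E(-)T(+) and highest in E(+)T(+), the order of the hemoglobin share given above, and the part of blood content in these values was not tested. Platelet genes had a median of 0.60, with the chemokine Pf4 highest at 1040.2, 1563, 4665 and 13643 and Vwf, which endothelium also makes, lowest. With both tumor-free libraries as the reference the platelet median was -0.14.

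**Figure D4:**
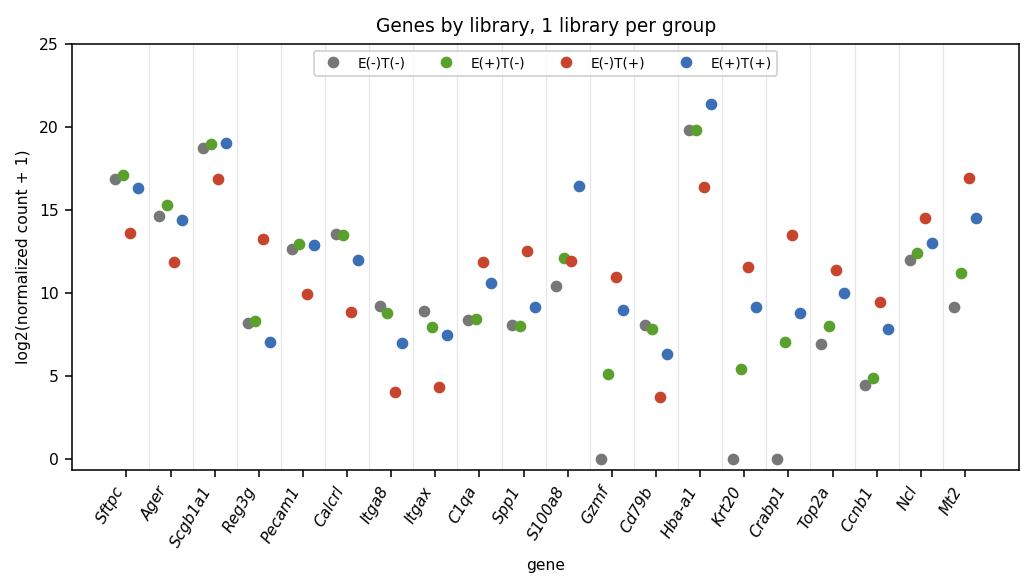
Levels of 20 genes as log2(normalized count + 1) on the y axis, 1 point per library and 1 library per group, coloured by group. Red points, E(-)T(+), are lowest for Sftpc, Ager, Scgb1a1, Pecam1, Calcrl, Itga8, Itgax, Cd79b and Hba-a1 and highest for Reg3g, C1qa, Spp1, Gzmf, Krt20, Crabp1, Top2a, Ccnb1, Ncl and Mt2.

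The exercised pair, E(+)T(+) minus E(+)T(-), comes from other libraries and gives the tumor effect a second time under exercise. Over the same 9396 genes, 921 (9.8%) were at least 2-fold higher and 765 (8.14%) lower, and the median absolute difference was 0.46 in place of 0.75. The absolute difference was larger in the resting pair for 6348 genes (67.6%). Of the 1724 genes higher at rest, 480 were also higher in the exercised pair, 1220 were inside 2-fold and 24 were lower. Of the 1877 lower at rest, 422 were lower again, 1379 were inside 2-fold and 76 were higher. Mitosis genes were higher in both (median 4.53 at rest and 2.06 exercised), as were tumor-associated macrophage genes (2.23 and 1.72) and neutrophil genes (1.98 and 3.87). Endothelial genes had medians of -2.77 and -0.46, alveolar type 2 genes -2.55 and -0.42, and class II genes -3.94 and -0.67. Erythroid genes had opposite signs, -3.08 and 1.69. Crabp1 differed by 1.78 and Krt20 by 3.69 in the exercised pair, which starts from the reads in E(+)T(-) described above. At rest both had 0 reads in E(-)T(-), so only lower bounds can be given, at least 4504-fold and 1159-fold. The exercised differences are therefore not set against a resting value. Reg3g (5.04 and -1.27) and Akap5 (2.55 and -0.37) were higher in the resting pair alone. With 1 library per group, whether exercise altered the tumor effect was not tested.

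**Figure D5:**
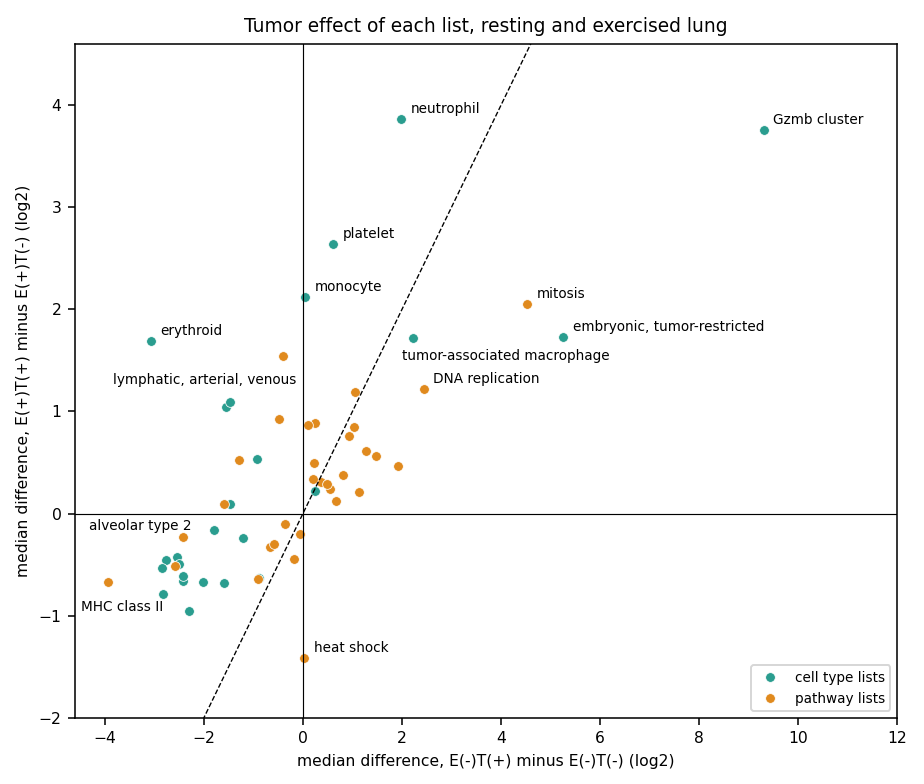
Each point is a gene list with 3 or more genes above the expression limit, with the median difference E(-)T(+) minus E(-)T(-) on the x axis and E(+)T(+) minus E(+)T(-) on the y axis, both in log2(normalized count + 1); the dashed line marks equal medians. Neutrophil, platelet and monocyte lists lie above the line, the alveolar type 2 and class II lists lie nearer to 0 on the y axis than on the x axis, and the erythroid list is negative at rest and positive exercised.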

How the data were processed

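Lung RNA of 4 groups was sequenced from the poly(A) end of transcripts (QuantSeq 3' mRNA-Seq), 1 library per group, which yields about 1 tag per transcript whatever its length. The authors aligned reads with Bowtie2, counted them with bedtools and normalized the counts with edgeR's quantile method. The submitters' processing notes name mm10, and versions, annotation and strand were not given in the sources used here, so overlapping or near-identical genes may share reads. The deposited values are log2(normalized count + 1), at 3 decimals, and 79 of 23282 rows share a symbol.

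Whole reads were recovered by inverting the quantile adjustment (fitted dispersion 0.372). At high counts 3 decimals of log2 do not fix a single whole read, so large read numbers and library totals are approximate. The recovered reads returned 99.3% of the deposited log2 values to all 3 decimals and 100% within 0.001. The method was tested on simulated data made with the same adjustment, so that test checks the inversion alone. Differences were taken between deposited values, so they understate folds of low genes. A gene was called at 2-fold without a test. Intervals are exact Clopper-Pearson 95% intervals of the reads of the 2 resting libraries, scaled by effective library sizes, and the floor is 3 reads per library.

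Named genes were the 12 largest and 12 smallest differences, the 6 largest changes in count each way, the 2 at the expression limit, the 4 most abundant flat genes, 10 markers and, per list, the first 4 members above the limit with the extremes. Some genes under this rule are not reported here. Other genes in the text were chosen after their values were seen, the examples within lists and the promoters shown included. The comparison and the 61 lists were chosen with earlier results of these data known. Positions and promoters are from RefSeq GRCm38.p6, matched by symbol for 9366 genes. Alternatives were other expression limits, pseudocount, scalings, reference and fold thresholds. Analysis used Python 3.11.15, numpy 2.4.6, pandas 2.3.3, scipy 1.17.1 and matplotlib 3.10.9.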

Additional observations from a re-analysis of the deposited data

Results flagged for a closer look

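These results had opposite signs in the resting and the exercised pair, and none of these differences was tested. The erythroid list had a median of -3.08 at rest and 1.69 exercised, and its most abundant genes moved with it: Hba-a1 was -3.43 and 1.56, Hbb-b1 -3.41 and 1.54, and Hbb-bs -3.39 and 1.52. The share of hemoglobin reads in each library is given above. Lymphatic, arterial and venous endothelial genes had medians of -1.55 and 1.04. Colon epithelium and keratin genes had -1.48 and 1.09, although Krt20 was higher in both pairs. Apol11b was at least 32.3-fold lower at rest and differed by 3.79 exercised, from 125, 126, 0 and 1384 reads in the order of libraries used above.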

How the results depend on the processing

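The numbers higher and lower were 3119 and 3892 at a mean of at least 4, 4302 and 4518 without a limit, 861 and 833 at a mean of at least 400, 550 and 861 at a 4-fold threshold and 229 and 349 at an 8-fold one. The share of higher genes among those past 2-fold was 47.9%. It was 44.5% at a mean of at least 4, 50.8% at 400, 51.5% with the limit set on the 2 resting libraries, 43.4% with it set on the exercised ones, 53.7% by library totals alone, 40.2% by totals without hemoglobin and Rn45s and 45.2% after centring on the median. The cause of these shifts was not tested. A pseudocount of 10, both tumor-free libraries as the reference and leaving out repeated symbols kept both counts within 1.5 times. The medians of 61 lists crossed 2-fold or 0 in 60 of 666 recalculations. Of the medians past 2-fold, cardiac muscle went to 0.60 at a mean of at least 400 and skeletal muscle to 0.001 without a limit. At a mean of at least 400 the ciliated median was -3.11, the fibroblast one -1.53, the lymphatic and vessel one -0.95, that of cholesterol synthesis 0.45 and that of TGF-beta genes -1.13, and the granzyme median was 6 with a pseudocount of 10. At a mean of at least 4, dendritic genes (0.24) went to -1.58 and Wnt targets (0.21) to -1.34. Medians near 0 (monocyte, heat shock, class I, ERK feedback) took either sign. No paired analysis was possible within the resting pair because each group has 1 library, and no replicate could be left out. The exercised pair was set beside it with no test. Genes near the limit rest on as few as 34 reads in the 2 resting libraries.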

Other observations

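The following gene groups were not described above. In the circadian list 7 of 15 genes were at least 2-fold higher and 1 was lower (median 0.92). This median was 0.53 at a mean of at least 4 and without a limit, and 0.23 at a mean of at least 400. The first members, the period genes Per1 and Per2 and the cryptochromes Cry1 and Cry2, differed by 1.06, -1.30, -0.72 and -0.48. The repressor Nr1d1 had the largest difference, with 87.4, 96.4, 712 and 961 normalized counts in the order of libraries used above, and was high in both tumor libraries. The hour of sampling was not given in the sources used here and was not tested. Glucocorticoid targets had 10 higher and 3 lower of 17 (median 1.06, or 0.64 against both tumor-free libraries). The chaperone Fkbp5 had 222, 371, 2987 and 732, with the other first members Tsc22d3, Zbtb16 and Sgk1 at 0.29, -1.74 and 1.35. Mt2 was the highest of this list too, and Hsd11b1, which activates glucocorticoid, the lowest (1571, 1431, 273 and 1673).

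Acute phase and complement genes had 6 higher and 4 lower of 16 (median -0.41). Over all 25 with a read 12 were higher and 4 lower, and the median was 0.76. Serum amyloid A3 (Saa3), made locally in inflamed tissue, had 73, 183, 8877 and 5598 normalized counts, and haptoglobin (Hp) was lowest at -1.59. Genes of xenobiotic metabolism were lower in 15 of 19 and higher in none (median -2.43), or 15 and 1 of the 23 with a read, with the glutathione transferase Gstt1 at 1409, 1381, 71.3 and 832 and the reductase Por at 0.55 as the extremes. Of genes of cell death 6 were higher and 3 lower of 21 (median 0.21), against 18.3% and 20% of all genes. The largest difference was in Bcl2l15, with 1, 2, 149 and 681 reads, and the lowest in the caspase inhibitor Xiap (-1.31). Heat shock genes had a median of 0.02, with 6 higher and 7 lower of 20. Hspa1a, which has a near-identical copy, was at -4.05 and the mitochondrial chaperonin Hspd1 at 1.72. Against both tumor-free libraries the heat shock median was -0.90. In E(+)T(-) Hspa1a had 4329 normalized counts, against 398 in E(-)T(-). Among families of 20 or more genes that share the letters of their symbol, a grouping chosen after seeing the data, ribosomal proteins Rpl (median 1.05, 51 genes) and Rps (0.95, 43 genes), initiation factors Eif (0.76, 51 genes) and mitochondrial ribosomal proteins Mrps (0.72, 28 genes) were at the top of 33 families. Tripartite motif genes Trim were at the bottom (-0.38, 22 genes).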
